A study of Tetranychus urticae with 4 samples.

Results

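Of the 18217 genes that the probes of a custom two-colour array of the spider mite Tetranychus urticae list, 37 gave a signal well above background in diapausing adult females and with no single-gene probe in non-diapausing ones. They were found among the 17204 genes with at least 2 probes that list only that gene. A gene was kept when at least 2 of these single-gene probes were well above background in the diapausing channel on all 4 arrays while none of its single-gene probes was so in the non-diapausing channel on any array. "Well above background" is the mark that the image software sets for a spot whose signal clearly exceeds its local background, and the marks of repeated spots of a probe were averaged. By these marks 40 genes, 0.233% of those that could have met the rule, were detected in diapausing females alone. From them 3 genes, tetur22g02110, tetur22g02740 and tetur22g02760, were set aside because their ids begin like those of antifreeze genes of scaffold 22. The study lists tetur22g02740 and tetur22g02760 in its antifreeze family, but not tetur22g02110, which was left out by its id alone. This left the 37 genes described here. The marks of both channels chose the genes, so their signals and ratios are given as a description and were not tested.

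Diapause of this mite is a reproductive arrest of the adult female. It is induced by short days during juvenile development, and the females stop maturing eggs, turn orange and survive the winter without feeding. Of the 37 genes, 36 had no gene name in the sources used here. The exception, tetur20g00070, is listed as a hypothetical protein whose closest match is an uncharacterized protein of the predatory mite Metaseiulus occidentalis. No probe sequence is printed, because none was at hand, and the genes are called by their ids.

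All females, of the LS-VL strain, had been reared from the larval stage at 17 °C, 80% relative humidity and 8 h of light to 16 h of dark, conditions under which some entered diapause and others did not. Each of the 4 replicates was 1 array, with whole diapausing females in Cy5 and whole non-diapausing females in Cy3, and the 4 arrays shared a slide. The dyes were not swapped, so for any probe a bias of the dyes and a difference due to diapause cannot be told apart. Whole mites were measured, so fewer cells of a type and less RNA per cell cannot be told apart either. The labels number the samples as replicates without saying whether they came from separate cultures, and a p value here measures the spread between these 4 arrays. The labels were checked on 6 vitellogenin genes, which encode yolk precursors and had log2 ratios of diapausing over non-diapausing females from -9.22 to -7.02. The 14 antifreeze genes that the study listed as upregulated had log2 ratios from 1.91 to 7.34. All genes of each list lay on 1 side of 0 on all 4 arrays. The study took both lists from changes on these same arrays, so their direction was given in advance. The check thus covers only which channel was read as diapausing, and is no independent evidence of diapause.

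The marks do not show that the 37 genes were silent in non-diapausing females. The software also sets a weaker mark, for a signal that is positive and significantly different from background. Over the 110 probes of the 37 genes on 4 arrays, 303 of 440 values in the non-diapausing channel (68.9%) carried the weaker mark, and each of the 37 genes carried it at least once. Among the negative control spots, 39 of 1232 values (3.17%) carried it. With the weaker mark as the limit for Cy3, no gene met the rule. The genes with the fewest such values were tetur53g00070 and tetur13g04430, with 2 of 12 each, and tetur31g00180, with 4 of 12. At the other end tetur01g14580 and tetur03g03500 carried the weaker mark in 12 of 12 values. The set is therefore described as genes well above background only in diapausing females, and their folds as lower bounds.

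Most of the 37 genes were dim. The mean processed Cy5 signal over the probes detected lay below 100 intensity units in 29 genes and below 50 in 12 of these. The lowest signal of a gene on an array was 30.4 and the highest 868. The lowest Cy3 signal that the software marked as well above background was 26.8 to 32.7 per array, so the dimmest genes of the set lay just above the limit of detection. In Cy5 that lowest signal was 21.1 to 30.1, below the Cy3 value on each of the 4 arrays, and its part in the choice of the genes was not tested. Of 308 negative control spots, 0 were well above background in Cy5 on all 4 arrays, and 5 of 1232 single values were so.

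**Figure D1:**
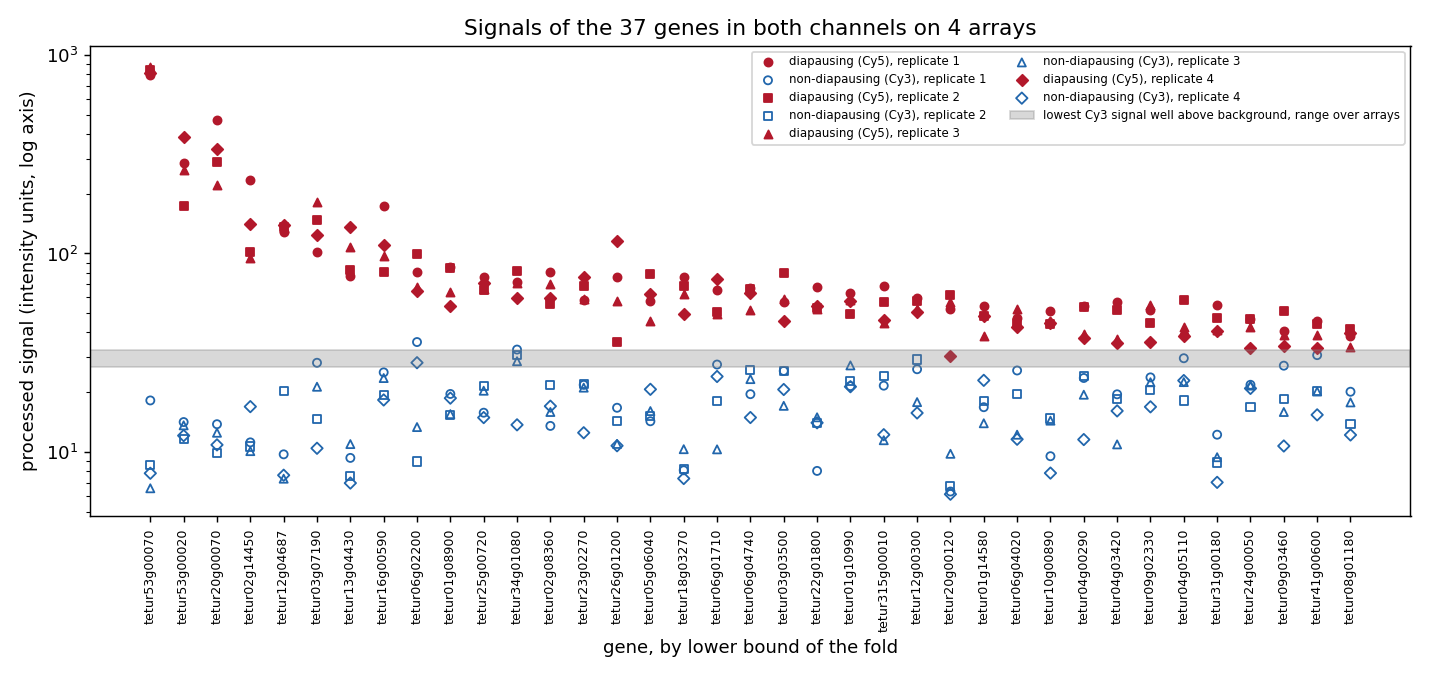
Processed signal (intensity units, log axis) of the 37 genes, averaged over the probes detected in Cy5, with 1 point per array for diapausing (filled, Cy5) and non-diapausing females (open, Cy3). The grey band is the range over arrays of the lowest Cy3 signal well above background, 26.8 to 32.7. The Cy3 points lie in or under the band except for 35.8 in tetur06g02200 and 32.8 in tetur34g01080, both on replicate 1, and for most genes the Cy5 points lie less than a factor of 4 above it.

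Tetur53g00070 stood farthest above the background. Its processed Cy5 signals were 790.0, 844.7, 867.7 and 808.5 in replicates 1 to 4, against Cy3 signals of 18.2, 8.56, 6.56 and 7.80. These signals are means over 3 probes with mean Cy5 signals of 2016, 271.8 and 195.2, so the brightest probe weighs most. In Cy5 the dimmest probe ran from 145.6 to 247.4 over the arrays. As means over probes the diapausing signals were close to each other, and the channels were far apart on each array. The log2 ratios were 4.72, 5.77, 6.31 and 6.001, with a mean of 5.70 ± 0.69 (SD, n = 4). Measured against the limit of detection, the gene was on average at least 15.4-fold higher in diapausing females. This bound sets the normalized log2 Cy5 signal against, per array, the higher of the Cy3 signal and the lowest Cy3 signal well above background. It is a mean over the probes detected in Cy5 and over the 4 arrays, so single probes or arrays can lie under it. Like the ratio it is open to dye bias.

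Tetur53g00020, on the same scaffold, had Cy5 signals of 284.8, 174.4, 262.9 and 386.2 and Cy3 signals of 14.1, 11.7, 13.6 and 12.1. The channels did not overlap, which the rule makes likely, and replicate 4 had the highest Cy5 signal and replicate 2 the lowest. The log2 ratios were 4.32, 3.88, 4.51 and 5.11. Their mean was 4.46 ± 0.51 (SD, n = 4), and the gene was at least 8.67-fold higher. It was the only gene of the set with 2 single-gene probes rather than 3, and 2 further probes list it together with another gene. Both of these shared probes were well above background in both channels on all 4 arrays, and which of the listed genes gave their signal was not tested.

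Tetur20g00070, the hypothetical protein, had Cy5 signals of 470.6, 290.0, 221.2 and 337.0 and Cy3 signals of 13.8, 9.91, 12.5 and 10.8. Replicate 1 was the highest and replicate 3 the lowest in Cy5, and the channels did not overlap, again as the rule makes likely. The log2 ratios were 4.32, 3.85, 3.33 and 3.95, with a mean of 3.86 ± 0.41 (SD, n = 4), and the gene was at least 8.40-fold higher. One further probe, shared by 3 genes, lists it too and was well above background in both channels on all 4 arrays. Tetur53g00070, tetur53g00020 and tetur20g00070 were the only genes with a bound of 8-fold or more. With shared probes counted for each of their genes, the rule gave 41 genes, 34 of them of the set, and tetur53g00020, tetur20g00070 and tetur09g03460 were lost.

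A further 3 genes had bounds of 4-fold or more. Tetur12g04687 had Cy5 signals of 127.6, 136.2, 135.1 and 138.8 with little difference between replicates, while its Cy3 signals were 9.72, 20.2, 7.33 and 7.63. The higher Cy3 value on replicate 2 went with the lowest of its log2 ratios, which were 3.71, 2.77, 4.13 and 4.14, and the bound was at least 4.22-fold. Tetur02g14450 had Cy5 signals of 235.9, 101.7, 95.1 and 141.2, highest in replicate 1, with log2 ratios of 3.20, 2.46, 2.21 and 2.58 and a bound of at least 4.37-fold. Tetur03g07190 had log2 ratios of 1.19, 2.90, 3.02 and 2.66, of which that of replicate 1 was the lowest, and a bound of at least 4.02-fold. On that array its Cy5 signal was its lowest, at 102.3, and its Cy3 signal its highest, at 28.1.

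The other 4 of the 10 largest bounds were 3.20-fold in tetur13g04430, 2.75-fold in tetur16g00590, 2.36-fold in tetur06g02200 and 2.25-fold in tetur01g08900. These 10 genes were also the 10 with the highest mean log2 Cy5 signal. In tetur13g04430 the log2 ratios of 3.14, 3.43, 3.60 and 4.27 had a mean of 3.61 ± 0.48 (SD, n = 4), above those of tetur02g14450 and tetur03g07190, which had larger bounds. Its Cy3 signals of 6.97 to 10.95 were far under the limit of detection. The ratio takes such Cy3 values as they are, and the bound raises them to that limit. Tetur06g02200 had the least even ratios, 1.36, 3.11, 2.24 and 1.11 (SD 0.91, n = 4). It was followed by tetur03g07190 (SD 0.85, n = 4) and tetur26g01200, with ratios of 2.36, 1.44, 2.61 and 3.42 (SD 0.82, n = 4).

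Over the 37 genes the bounds ran from 1.26 to 15.4-fold, with a median of 1.88-fold. The bound was 2-fold or more in 15 genes and less in 22. The mean log2 ratio ran from 0.63 to 5.70 with a median of 1.47, beside a median of 0.099 over all 14338 genes tested, and all 37 genes were above 0 on all 4 arrays, as the rule makes likely. The medians per array were 1.52, 1.63, 1.49 and 1.52, so no array stood apart. The SD over the 4 arrays of a gene's log2 ratio was 0.063 to 0.91, with a median of 0.36. In the fit across all genes, 1284 of 14338 genes (8.96%) were higher in diapausing females at an adjusted p under 0.05 and 2-fold. Of the 37, 35 were among them, and the exceptions were tetur04g05110 and tetur41g00600, at mean log2 ratios of 0.63 and 0.66. With normexp background correction and loess, 3 of the 37 were called higher, beside 2.25% of all genes. Since that contrast chose the genes, nothing is read from these counts.

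**Figure D2:**
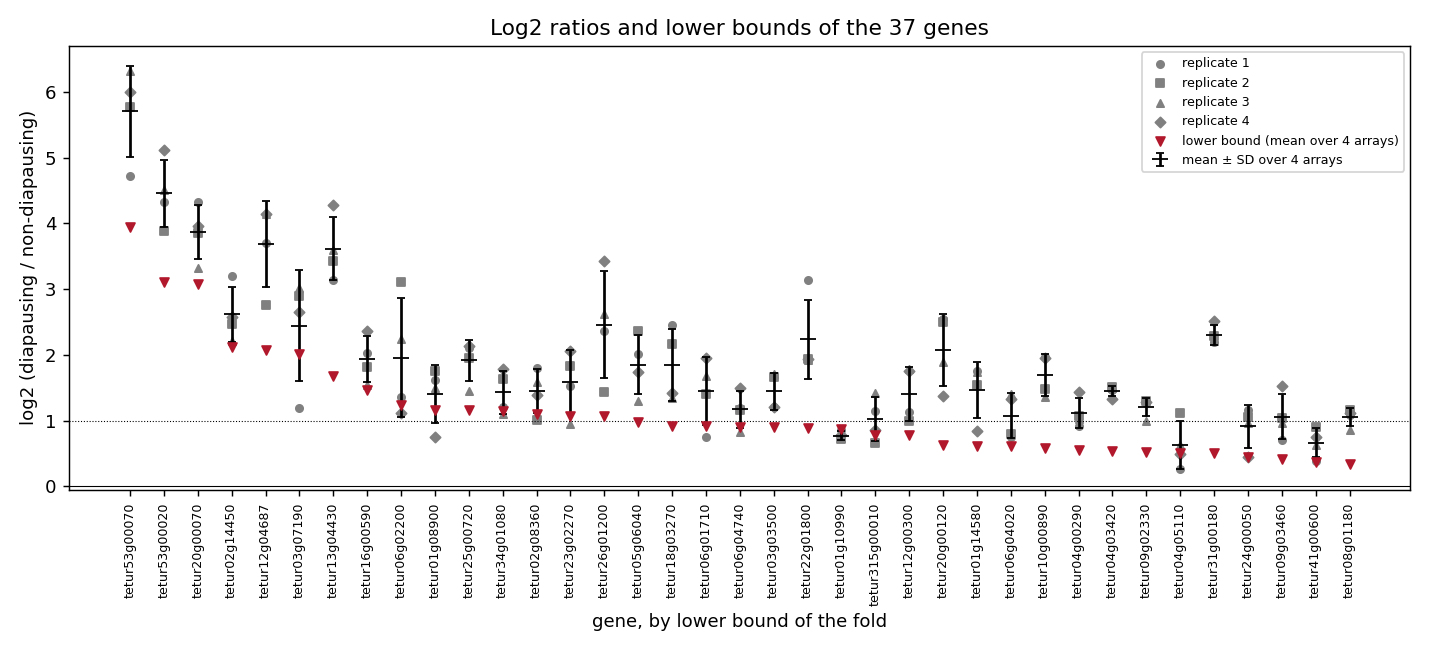
Log2 ratio of diapausing over non-diapausing females for the 37 genes, over all single-gene probes, with 1 grey point per array, the mean ± SD over 4 arrays in black and the lower bound on the same scale as a red triangle. The dotted line marks 2-fold. Bounds fall from 3.94 in tetur53g00070 to 0.33 in tetur08g01180, and 15 lie above the dotted line. The bound uses only the probes detected in Cy5, so it can lie above the mean ratio, as in tetur01g10990.

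The size of these differences depended on the processing. With normexp background correction and an offset of 50 on the median signals, and loess in place of the software's dye normalization, the set had a median log2 ratio of 0.31, and all 37 genes stayed above 0. The offset adds to both channels about as much signal as most of these genes have, which shrinks their ratios by construction. The parts of the other changes were not tested. The bounds were then 4.40-fold in tetur53g00070, 3.16-fold in tetur20g00070 and 2.84-fold in tetur53g00020, and under 2-fold in the other 34 genes.

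The probes of a gene did not always behave alike. In 8 genes all single-gene probes were detected in Cy5, and in 29 genes 1 of 3 was not. The 81 detected probes had mean log2 ratios from 0.52 to 7.48 with a median of 1.91, and 80 of them were above 0 on all 4 arrays. The 29 other probes had mean log2 ratios from -0.47 to 2.35 with a median of 0.66, and 12 of them were above 0 on all 4 arrays. Detection in Cy5 chose the first group, so the difference between the groups is a description.

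Within tetur53g00070 the brightest probe had log2 ratios of 5.93, 7.85, 8.25 and 7.90. The other probes had means of 5.10 ± 0.34 and 4.52 ± 0.80 (SD, n = 4 arrays). All of its 3 probes were thus above 3 on the log2 scale on each array. Tetur12g04687 and tetur13g04430 likewise had 3 detected probes, with means of 4.39, 3.71 and 2.95 in the first and 3.17, 3.92 and 3.74 in the second. In tetur02g14450 the probes differed more, with means of 4.36 and 2.86 in the detected ones and 0.62 in the one that was not. In tetur01g08900 the undetected probe had a mean below 0.

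**Figure D3:**
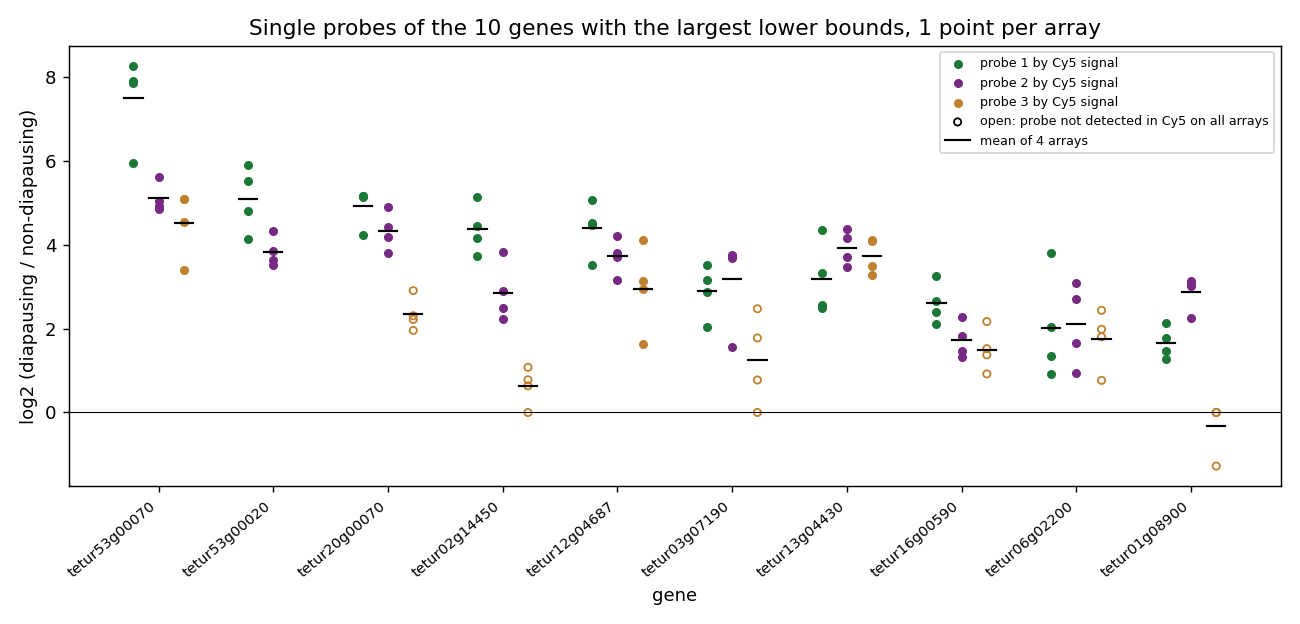
Log2 ratio of diapausing over non-diapausing females for the single probes of the 10 genes with the largest bounds, with 1 point per array and the mean of 4 arrays as a bar. Colours order the probes of a gene by their Cy5 signal, and open points are probes not detected in Cy5 on all arrays. The 3 probes of tetur53g00070 have means of 7.48, 5.10 and 4.52, and the third probe of tetur02g14450 has a mean of 0.62.

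At the lower edge of the set the channels lay close together. Tetur08g01180 had Cy5 signals of 38.5, 41.9, 33.8 and 39.9 and Cy3 signals of 20.1, 13.9, 17.8 and 12.2, with a bound of at least 1.26-fold. The bounds of tetur41g00600 and tetur09g03460 were 1.30-fold and 1.33-fold. Averaged over the probes detected in Cy5, all 4 diapausing signals of each gene were above its non-diapausing ones, as the rule makes likely. The margin was a few intensity units in tetur41g00600, whose lowest Cy5 signal was 33.5 and highest Cy3 signal 30.7. Single probes did not all follow. A detected probe of tetur41g00600 had 28.29 in Cy5 and 32.45 in Cy3 on replicate 2, and its undetected probe had log2 ratios of 0 on all 4 arrays. The undetected probe of tetur08g01180 had 27.36 in Cy5 and 31.4 in Cy3 on replicate 4.

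Just outside the set were 23 genes that missed it through a single mark in Cy3, on 1 probe and 1 array. The brightest in Cy5 were tetur08g05250, with a mean Cy5 signal of 180.7 against 22.4 in Cy3 and a log2 ratio of 2.07 ± 0.072 (SD, n = 4), and tetur08g03200, with 146.7 against 25.9 and a log2 ratio of 2.42 ± 0.41 (SD, n = 4). They were followed by tetur08g07350, tetur31g00190 and tetur19g02760, at log2 ratios of 2.09, 1.80 and 1.16. These values lay within the range of the set. A further 121 genes had 1 detected probe in Cy5 and no mark in Cy3, and the set is thus a slice of a continuous range of signals.

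The converse rule, with the channels exchanged, found 28 genes (0.163% of 17204) well above background only in non-diapausing females. They had a median log2 ratio of -3.40, which like the 1.47 of the 37 genes rests on a channel that was not well above background. Both sets were chosen on the channels of these ratios, and no test was made between them.

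The 37 genes were spread over 24 scaffolds of the genome, 15 of which held a single one. Scaffold 6 held 4 and scaffolds 1 and 4 held 3 each. The order of the ids along a scaffold was taken as the order of the genes, and no 2 of the 37 had fewer than 4 other genes of the array between them. The closest pairs were tetur20g00070 and tetur20g00120, with 4 genes between them, and tetur53g00020 and tetur53g00070, also with 4. Scaffold 53 is short, with 11 genes on the array, and the 2 largest bounds of the set belong to it.

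The genes next to the 37 were not chosen by the rule, and they could be compared with all genes in the limma fit. Within 2 places of a member lay 142 other genes, of which 104 were tested. Of these 21 (20.2%) were higher in diapausing females, beside 8.96% of all genes, and 5 (4.81%) were lower, beside 9.24% of all genes. Of the 21, 5 carried only 0 or 1 mark of well above background in Cy3, so their ratios share the limit of the set near background. None of these 5 was called higher with normexp. The 21 genes stood next to 15 of the 37, and 7 of them lay on scaffolds 20 and 53. Without these scaffolds, a choice made after seeing the data, 14 of 94 (14.9%) were higher. With normexp and the offset of 50 the count was 8 of 104 (7.69%), beside 2.25% of all genes. Most of these 8 lay on scaffolds 20 and 53, namely tetur20g00060, tetur20g00080, tetur20g00130, tetur53g00010 and tetur53g00050. The others were tetur02g14440, tetur02g14470 and tetur41g00580, so with normexp little of the excess was left outside scaffolds 20 and 53. No chance test was made of these shares.

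On scaffold 20 both genes beside tetur20g00070 rose, with log2 ratios above its own. The genes named in this paragraph and the next were picked after their values were seen. Tetur20g00060 is also listed as a hypothetical protein and was measured by 1 single-gene probe. This probe had log2 ratios of 6.96, 8.88, 7.32 and 10.20 and a mean of 8.34 ± 1.49 (SD, n = 4, adjusted p = 0.000342 by limma). The rule needs at least 2 such probes, and this one was well above background in Cy3 on all 4 arrays, so the gene was out of the set. Tetur20g00080 had log2 ratios of 6.61, 6.29, 4.50 and 6.72 with a mean of 6.03 ± 1.04 (SD, n = 4, adjusted p = 0.000310 by limma), and 2 marks in Cy3 kept it out. With normexp these log2 ratios were 7.85 and 3.02. Farther along, tetur20g00120 of the set had Cy5 signals of 52.5, 62.0, 56.9 and 30.4 and Cy3 signals of 6.31, 6.71, 9.78 and 6.12, and a bound of at least 1.55-fold. These signals are means over its 2 probes detected in Cy5. In them the diapausing signal was lowest in replicate 4, and the channels did not overlap, which the rule makes likely. The third probe had Cy5 signals of 39.99, 36.46, 25.06 and 13.89 and Cy3 signals of 13.07, 15.73, 20.17 and 19.53, so its channels overlapped. Among the 14 first genes of the scaffold the changes were not all in 1 direction, as tetur20g00110 had a log2 ratio of -0.89 ± 0.089 (SD, n = 4), short of 2-fold.

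On scaffold 53, tetur53g00010 beside tetur53g00020 had a log2 ratio of 3.57 ± 0.42 (SD, n = 4, adjusted p = 0.000146 by limma). Tetur53g00050 had 2.01 ± 0.36 (SD, n = 4, adjusted p = 0.000395 by limma), and tetur53g00080 had 2.09 ± 0.92 (SD, n = 4, adjusted p = 0.00527 by limma) from 1 probe. The last genes of the scaffold, tetur53g00090 to tetur53g00110, had log2 ratios of 0.62, 0.19 and -0.58, none of them 2-fold. On scaffold 2, 3 genes around tetur02g14450 also rose. Tetur02g14440 had a log2 ratio of 2.70 ± 0.33, tetur02g14460 one of 1.25 ± 0.24 and tetur02g14470 one of 3.26 ± 0.15 (SD, n = 4 each), with adjusted p of 0.000587 or less by limma. With normexp, tetur02g14460 and tetur53g00080 fell short of 2-fold, at 0.66 and 0.38, while the other neighbours named here as higher stayed past it. The gene 2 places from tetur13g04430, tetur13g04450, changed in the opposite direction, at a log2 ratio of -4.42 ± 0.21 (SD, n = 4, adjusted p = 3.7e-05 by limma).

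**Figure D4:**
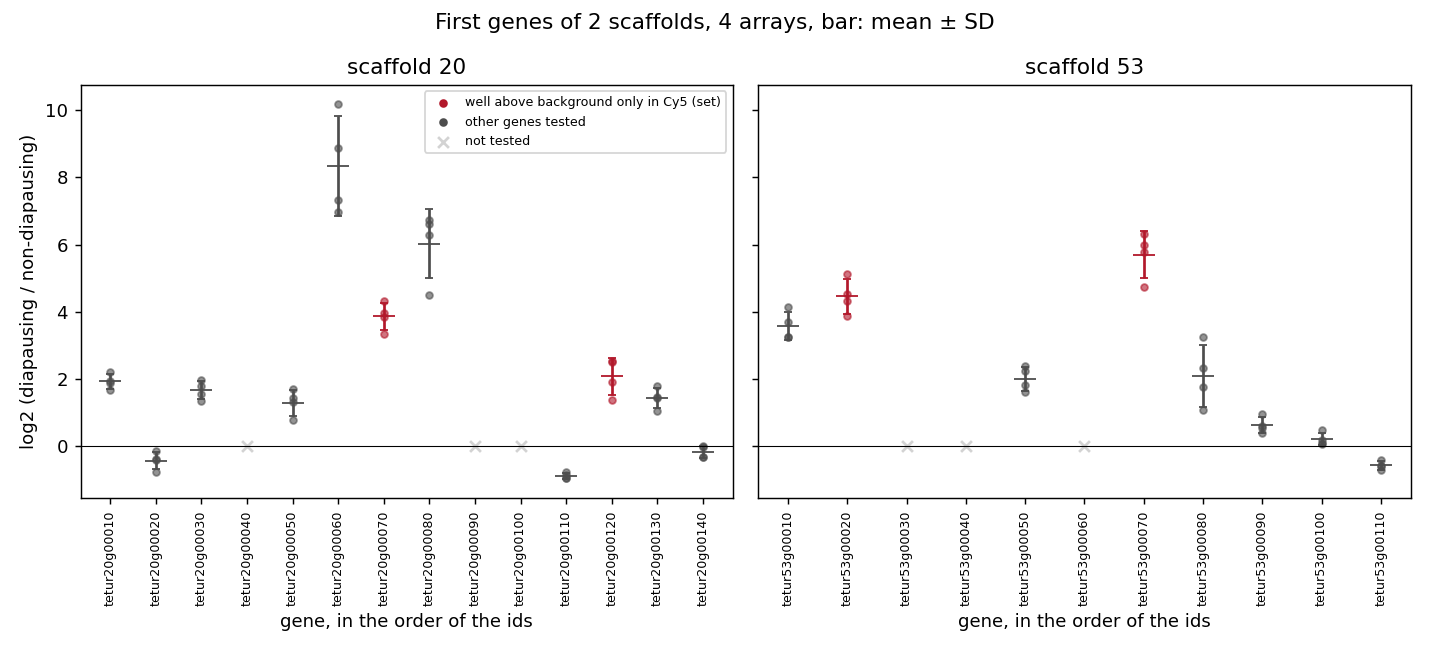
Log2 ratio of diapausing over non-diapausing females for the first 14 genes of scaffold 20 and the 11 genes of scaffold 53 in the order of their ids, with 1 point per array and the mean ± SD over 4 arrays. Red marks genes of the set, grey other genes tested, and crosses at 0 stand for genes that were not tested and have no value. Tetur20g00060 and tetur20g00080, at 8.34 and 6.03, lie above tetur20g00070 between them at 3.86.

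The number of genes in the set depended on how detection was defined. It was 7 when 3 probes had to be detected in Cy5, 158 when 1 was enough, and 68 when 3 of the 4 arrays were enough in Cy5. The 7 were tetur53g00070, tetur12g04687, tetur13g04430, tetur26g01200, tetur03g03500, tetur31g00180 and tetur12g00300. Leaving out an array loosens the rule, and the count rose to 73 without replicate 1 and 58 without replicate 3, against 43 and 46 without replicates 2 and 4. All 37 genes were found again each time, as a looser rule requires.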

How the data were processed

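The authors scanned 4 two-colour arrays and extracted spot values with Agilent Feature Extraction (10.7.1.1 per the file headers). Per spot and channel the deposited intensity values are median signals with local background, and processed signals after background subtraction, detrending and dye normalization. The deposited log10 values are ratios of processed Cy5 over Cy3, converted here to log2, and a second table deposited by the authors holds the same ratios as log2 values. Control spots were left out. Outlier spots were left out of the probe signals and ratios, but not of the marks that chose the genes. Gene values are means over single-gene probes. Bounds used processed signals after Aquantile.

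Probes well above background in either channel on at least 2 arrays entered the fit of mean ratios against 0 (limma 3.58.1, R 4.3.3, Benjamini-Hochberg adjustment). The fit was tested on simulated data. Python 3.11.15 was used for counts and plots. The genes, lists and tests were chosen with earlier results of these data known. Named were genes listed by the study, the 10 highest in Cy5, the 10 largest and 3 smallest bounds, the 3 least even ratios, and 5 genes just outside. Alternatives changed the detection rule, background correction, probe summary, slide row and arrays used. Signal over background and the number of arrays limit the precision.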

Additional observations from a re-analysis of the deposited data

Results flagged for a closer look

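In 2 of the 37 genes, 1 array lay far from the others in the log2 ratio by Dixon's test, which flags about 1 in 20 groups by chance. Tetur22g01800 had a log2 ratio of 3.14 on replicate 1, against 1.92 to 1.94 on the other arrays. Tetur09g02330 had 0.99 on replicate 3, against 1.26 to 1.30.

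Outside the single-gene probes, 46 of 3703 probes that list several genes (1.24%) and 21 of 715 probes that list no gene (2.94%) were well above background in Cy5 on all 4 arrays and in Cy3 on none. Among the single-gene probes 511 of 51766 (0.987%) were so, and among the 308 negative control spots 0 were well above background in Cy5 on all 4 arrays.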

How the results depend on the processing

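The set held 37 genes, and 158, 7 or 68 with at least 1 detected probe, at least 3, or detection in Cy5 on at least 3 arrays. With the weaker mark for Cy3 it held 0, and leaving out an array gave 43 to 73. The median bound of 1.88-fold became 1.27-fold with normexp and 2.22-fold with the brightest probe. The median log2 ratio of 1.47 became 0.31 with normexp and 1.68 with the median over probes, and 1.54 to 1.61 without 1 array. Normexp gave 323 higher and 765 lower genes in place of 1284 and 1325, and 8 in place of 21 higher genes next to the set. Without the pairing of channels on an array (no replicate block) the counts were 1277 and 1324. With at most 5 genes between neighbours, 4 genes lay in pairs, in place of 0. The other alternatives left the counts within 1.5 times and the medians within 1 SD over the arrays.

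Signal near background limits these genes: ratios of the dim ones rest on Cy3 signals under the limit of detection, and a bound near 1 says little of the true fold.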
